A study of Mus musculus with 6 samples.

Results

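The genes described here encode 10 carriers that move amino acids across the plasma membrane: Slc6a9, Slc3a2, Slc7a5, Slc7a6, Slc7a1, Slc1a5, Slc38a1, Slc38a2, Slc38a5 and Slc43a1. On the array they were represented by every non-control probe that carries one of these gene names, which gave 15 probes of 55681, all designed on RefSeq mRNAs. RNA came from G1E-ER-GATA-1 cells, mouse erythroid precursors without a working GATA-1 gene of their own, in which a fusion of GATA-1 with the ligand-binding domain of the estrogen receptor is switched on by estradiol. One group received siRNA against Foxo3 and the other nontargeting siRNA, each by nucleofection at 0 h and 24 h, with 3 samples per group. Both groups were given estradiol at 24 h and harvested at 48 h, so neither group shows the cells without active GATA-1, and the cells come from a single engineered line. Each total RNA sample was labelled with Cy3 from 0.1 µg and hybridised to its own Agilent mouse array in a single colour.

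A developing red cell takes up amino acids both to make globin and to make heme. Glycine is joined to succinyl-CoA in the first step of heme synthesis, and Slc6a9 (GlyT1) carries it into the cell. Large neutral amino acids enter through a light chain such as Slc7a5 (LAT1) bound to the heavy chain Slc3a2 (CD98), often in exchange for glutamine that Slc1a5 or a member of the Slc38 family has brought in. Leucine and arginine inside the cell are sensed by the kinase complex mTORC1, and a shortage of amino acids raises the transcription factor ATF4, which has several of these transporters among its known targets. Foxo3 is a forkhead transcription factor that is active when growth factor signalling is low.

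Levels are given as log2 signal relative to the 75th percentile of the same array, so a value of 0 is the signal that 75% of the non-control spots do not exceed, and differences are Foxo3 siRNA minus nontargeting siRNA. A probe was tested when its signal was well above background in every sample of at least 1 group, and it was called at a limma adjusted p under 0.05. On these terms 10 member probes of 7 genes were tested, among 26991 probes of 19224 gene names, and 3 genes could not be tested. The labels do not state whether the samples were grown as separate cultures. The p-values therefore cover only the spread among these samples, which may be technical, and 3 arrays per group limit the precision. The median difference of all tested probes was −0.15, and that of all gene names, each read by its brightest tested probe, was −0.15 as well. With scaling to the array median in place of the 75th percentile, the median of all tested probes was 0.15, and 4059 of the 5258 called probes were higher, against 3327 of 6857 with the 75th percentile.

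The targeted gene was read by a pair of probes that did not move together. The Foxo3 probe on the RefSeq transcript gave −0.47, −1.29 and −1.89 with Foxo3 siRNA, against 1.20, 1.28 and 1.12 with nontargeting siRNA, a fall of 2.42 on the log2 scale (SE 0.337, limma adjusted p = 0.00511) to 18.7% of the nontargeting level. Its signal in the Foxo3 siRNA group was near the limit, well above background in 2 of 3 samples, so it entered the test through the nontargeting group, and its remaining level is uncertain. All 3 Foxo3 siRNA values lay below all 3 nontargeting values. The other Foxo3 probe gave 0.26 (limma adjusted p = 0.242). Its groups lay wholly apart too, but in the opposite direction, higher with Foxo3 siRNA. Within slide row 1, which held Foxo3 siRNA replicate 1 and all 3 nontargeting arrays, the RefSeq probe differed by −1.67 (limma adjusted p = 0.0273). All values within slide row 1 rest on that single Foxo3 siRNA array, which is assumed to vary like the nontargeting arrays, and a fit with the slide row as a block gives the same difference, since the other row held only Foxo3 siRNA arrays. Foxo3 siRNA replicate 3 stood apart in its dim signals: surrogate values filled 50.2% of its spots against 16.7% to 29.3% on the other arrays, and 20343 of its spots were well above background against 30619 to 37532. Array correlations were 0.984 to 0.993 within groups and 0.966 to 0.981 across groups.

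Of the 7 tested transporter genes, Slc38a5 rose and 0 fell in the limma test when each was read by its brightest tested probe. This is 1 of 7 genes, against 26.0% of all gene names called in either direction (13.2% higher and 12.8% lower). At an unadjusted p under 0.05 the count was 2 of 7, Slc38a5 and Slc38a2, against 43.8% of all gene names. In the authors' deposited table Slc38a5 was the 1 gene with an adjusted p under 0.05 on its brightest probe, against 4.52% of the same gene names in that table. With the mean of a gene's tested probes in place of the brightest, 2 of 7 were called, Slc38a5 higher and Slc7a5 lower, against 27.5% of all gene names. By probe, 1 of 10 was higher and 1, the dimmer Slc7a5 probe, was lower, against 25.4% of all probes called (12.3% higher and 13.1% lower). Values in the groups lay wholly apart for 3 of the 10 probes, against 49.6% of all probes. The median of the 7 genes was −0.36, beside −0.15 for all gene names, and 4 of the 7 differences were negative. With scaling to the array median the median of the 7 genes was −0.06, beside 0.15 for all tested probes. In RNA from whole cultures, fewer cells of a type and less RNA per cell cannot be told apart.

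**Figure D1:**
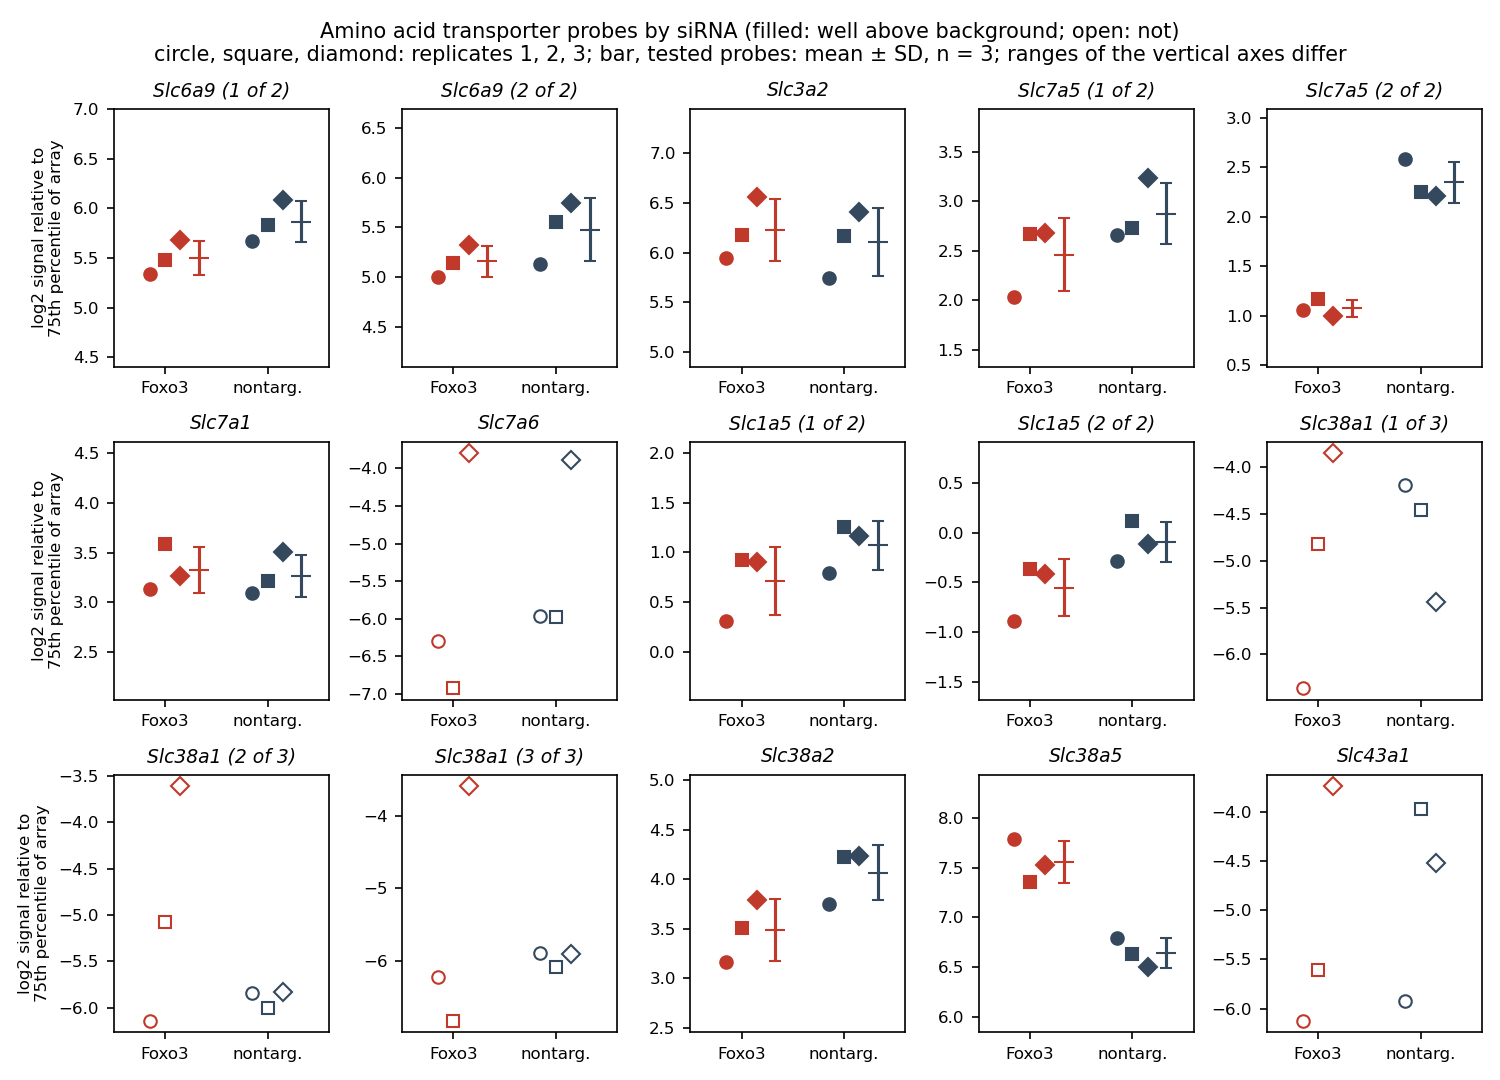
Log2 signal relative to the array's 75th percentile (vertical axis) for each of the 15 transporter probes with Foxo3 siRNA (left) and nontargeting siRNA (right), 3 arrays each, filled where the probe was well above background and open where it was not, with mean ± SD for the tested probes. The groups lie wholly apart for Slc38a5, for the dimmer probe of Slc7a5 (2 of 2) and for the dimmer probe of Slc1a5 (2 of 2), and the 5 probes of Slc7a6, Slc38a1 and Slc43a1 have open points on all 6 arrays.

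Slc6a9 supplies glycine, the amino acid from which heme synthesis starts. Its 2 probes lie on mouse build mm9 at chr4:117541842-117541901 and chr4:117541851-117541910, plus strand, and are printed to show that they read nearly the same stretch of mRNA. The capitals mark the 51 bases they share, so they are not separate readings of the gene.
Slc6a9 brighter probe: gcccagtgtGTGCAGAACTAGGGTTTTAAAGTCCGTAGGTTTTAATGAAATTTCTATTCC
Slc6a9 dimmer probe: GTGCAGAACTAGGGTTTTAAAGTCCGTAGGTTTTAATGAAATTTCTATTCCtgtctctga

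The brighter Slc6a9 probe read 5.33, 5.48 and 5.68 with Foxo3 siRNA, against 5.68, 5.83 and 6.08 with nontargeting siRNA. The highest Foxo3 siRNA array just exceeded the lowest nontargeting array, so the groups overlapped. Slc6a9 averaged 5.50 ± 0.175 with Foxo3 siRNA and 5.86 ± 0.206 with nontargeting siRNA (SD, n = 3 each). The difference was −0.36 (SE 0.156, 95% interval −0.74 to 0.01), or 77.7% of the nontargeting level, and it did not pass the test (limma adjusted p = 0.124). In arrays of the same replicate number, Slc6a9 was lower with Foxo3 siRNA in 3 of 3 pairs, with differences of −0.34, −0.35 and −0.40. With the replicate number as a block its limma adjusted p was 0.0616, still above the threshold.

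The dimmer Slc6a9 probe gave 5.0, 5.14 and 5.32 with Foxo3 siRNA, against 5.13, 5.56 and 5.75 with nontargeting siRNA. These groups overlapped too, and the difference was −0.32 (SE 0.187, limma adjusted p = 0.223). The size of the Slc6a9 difference depended on the scaling: with the array median in its place, the brighter probe read −0.06 and the dimmer −0.02. Within slide row 1 the brighter probe read −0.53 (limma adjusted p = 0.222). In the authors' deposited table the log2 differences of Slc6a9 were −0.32 and −0.33, with adjusted p-values of 0.424 and 0.407.

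Slc3a2 encodes the CD98 heavy chain, which brings the Slc7 light chains to the cell surface (its probe lies at mm9 chr19:8782189-8782248, minus strand). It read 5.94, 6.17 and 6.56 with Foxo3 siRNA, against 5.74, 6.17 and 6.41 with nontargeting siRNA. The groups lay on top of each other, and the spread within each exceeded the difference between them. That difference was 0.12 (SE 0.229, 95% interval −0.43 to 0.67, limma adjusted p = 0.708). The sign was not stable: within slide row 1, Slc3a2 read −0.17.

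Slc7a5 is the light chain that imports leucine and other large neutral amino acids, and its probes disagreed. They lie 25860 bases apart on the minus strand of chromosome 8, the brighter at mm9 chr8:124405136-124405195 and the dimmer, nearer the 5′ end of the gene, at mm9 chr8:124430996-124431055. Both are printed because the call for Slc7a5 depends on which is read. They share no bases, and 38.3% of the brighter and 60% of the dimmer probe is G or C.
Slc7a5 brighter probe: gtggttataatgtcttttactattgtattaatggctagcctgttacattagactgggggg
Slc7a5 dimmer probe: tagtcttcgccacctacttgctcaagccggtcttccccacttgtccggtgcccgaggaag

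On the dimmer probe Slc7a5 read 1.06, 1.17 and 1.00 with Foxo3 siRNA, against 2.59, 2.25 and 2.21 with nontargeting siRNA. All 3 Foxo3 siRNA arrays lay more than 1 log2 unit below the lowest nontargeting array. The means were 1.07 ± 0.086 with Foxo3 siRNA and 2.35 ± 0.207 with nontargeting siRNA (SD, n = 3 each). This probe fell by 1.27 on the log2 scale (SE 0.140, 95% interval −1.61 to −0.94, limma adjusted p = 0.00258), which is 41.4% of the nontargeting level. It remained below 0.05 in 15 of 17 alternative settings, with differences from −1.34 to −0.97. Within slide row 1 the difference was −1.29 and the limma adjusted p 0.0509, and with no filter on dim probes the adjusted p was 0.0506. The authors' deposited table lists −1.32 with an adjusted p of 0.0324.

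On the brighter probe Slc7a5 read 2.03, 2.67 and 2.68 with Foxo3 siRNA, against 2.66, 2.73 and 3.23 with nontargeting siRNA. Foxo3 siRNA replicates 2 and 3 lay level with nontargeting replicates 1 and 2, so the groups overlapped. The difference was −0.41 (SE 0.238, 95% interval −0.98 to 0.16, limma adjusted p = 0.22), of the same sign as on the dimmer probe but past the threshold in 0 of 17 alternatives. The lowest adjusted p among those alternatives was 0.115, with the replicate number as a block. This Slc7a5 probe read −0.11 with scaling to the array median, −0.20 without Foxo3 siRNA replicate 1, −0.24 without nontargeting replicate 3 and −0.84 within slide row 1.

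The 2 Slc7a5 probes were set against each other by the gap between them on each array. The gap was 0.98, 1.50 and 1.68 with Foxo3 siRNA, against 0.08, 0.48 and 1.02 with nontargeting siRNA. It averaged 1.39 ± 0.366 with Foxo3 siRNA and 0.53 ± 0.475 with nontargeting siRNA (SD, n = 3 each), a difference of 0.86. Nontargeting replicate 3 exceeded Foxo3 siRNA replicate 1, so the groups overlapped, while arrays of the same replicate number differed by 0.90, 1.02 and 0.66, all in 1 direction. An exact two-sided permutation test over the 20 splits of the arrays gave p = 0.2, but 3 against 3 cannot go below 0.1 whatever the values, so the test does not settle whether the pair changed unequally. The same limit holds for the other 2 genes. For the overlapping Slc6a9 probes the gap differed by −0.04 (exact permutation p = 0.9), and for the Slc1a5 probes by 0.10 (exact permutation p = 0.2).

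**Figure D2:**
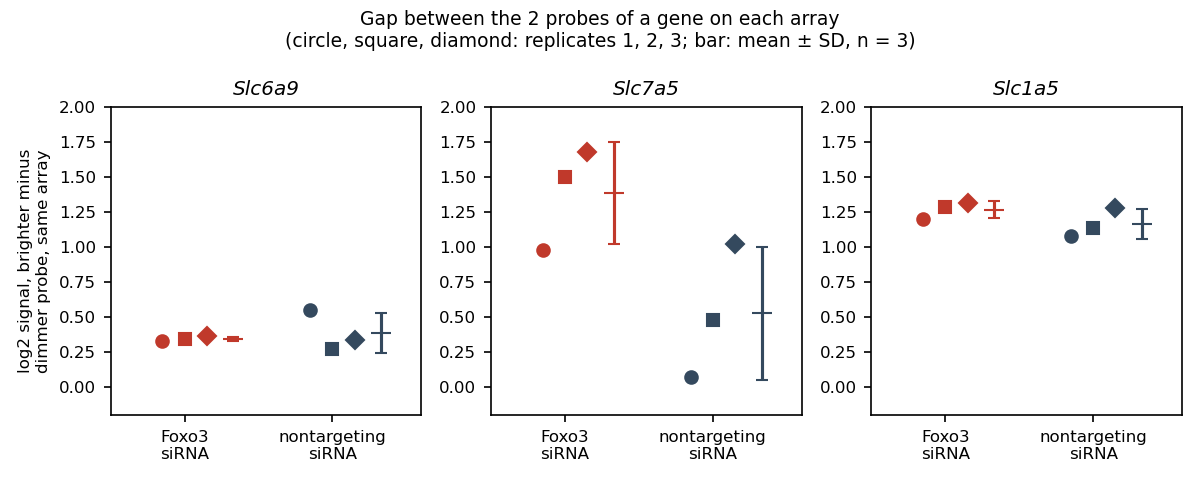
Log2 signal of the brighter probe minus that of the dimmer probe on the same array (vertical axis) for the 3 transporter genes with 2 tested probes, with Foxo3 siRNA (left) and nontargeting siRNA (right), as single arrays and mean ± SD. Over the 6 arrays the gap spans 0.27 to 0.55 for Slc6a9 and 1.08 to 1.32 for Slc1a5, and 0.08 to 1.68 for Slc7a5.

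Slc7a6 (y+LAT2) is another light chain of Slc3a2, which exchanges cationic for neutral amino acids. Its probe, at mm9 chr8:108722470-108722529 on the plus strand, was not well above background on any of the 6 arrays, and 4 of them hold surrogate values. No difference is given for it.

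Slc7a1 (CAT1) imports the cationic amino acids arginine and lysine without a heavy chain (probe at mm9 chr5:149139957-149140016, minus strand). It read 3.13, 3.58 and 3.26 with Foxo3 siRNA, against 3.09, 3.21 and 3.50 with nontargeting siRNA. The groups overlapped throughout, with the highest value in Foxo3 siRNA replicate 2. The difference was 0.06 (SE 0.172, 95% interval −0.36 to 0.47, limma adjusted p = 0.808), and within slide row 1 it was −0.14.

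Slc1a5 (ASCT2) exchanges glutamine and other small neutral amino acids. Its 2 probes are 332 bases apart on the plus strand of chromosome 7, the brighter at mm9 chr7:17383359-17383418 and the dimmer at mm9 chr7:17383027-17383086. They are printed because they are separate stretches that gave like differences between the groups, although their levels differed.
Slc1a5 brighter probe: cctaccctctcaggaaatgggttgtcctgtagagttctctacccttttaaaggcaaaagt
Slc1a5 dimmer probe: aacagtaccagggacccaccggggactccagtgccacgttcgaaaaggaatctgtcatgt

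The brighter Slc1a5 probe read 0.31, 0.92 and 0.90 with Foxo3 siRNA, against 0.79, 1.26 and 1.17 with nontargeting siRNA. Nontargeting replicate 1 lay below Foxo3 siRNA replicates 2 and 3. The difference was −0.36 (SE 0.215, limma adjusted p = 0.231), and it was negative in 3 of 3 pairs of the same number. The dimmer Slc1a5 probe read −0.88, −0.36 and −0.42 with Foxo3 siRNA, against −0.28, 0.12 and −0.11 with nontargeting siRNA. Here the groups did not overlap, although the gap was small. The difference of −0.46 (SE 0.186, 95% interval −0.91 to −0.02) did not pass the test (limma adjusted p = 0.107). With limma's array weights this Slc1a5 probe was called lower (adjusted p = 0.0495), and with the replicate block its adjusted p was 0.0524. The size for Slc1a5 moved with the setting: the brighter probe read −0.06 with scaling to the array median, −0.16 without Foxo3 siRNA replicate 1 and −0.76 within slide row 1, and the dimmer −0.16, −0.30 and −0.79.

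Slc38a2 (SNAT2) takes up glutamine and other small neutral amino acids with sodium and is known to be induced when amino acids are short. It was read by 1 probe at mm9 chr15:96518491-96518550, minus strand, shown because its call turned on the design of the test.
Slc38a2 probe: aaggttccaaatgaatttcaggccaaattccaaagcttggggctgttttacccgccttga

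Slc38a2 read 3.17, 3.51 and 3.79 with Foxo3 siRNA, against 3.75, 4.22 and 4.23 with nontargeting siRNA. Only Foxo3 siRNA replicate 3 reached into the nontargeting range, just above nontargeting replicate 1. The difference was −0.58 (SE 0.210, 95% interval −1.08 to −0.08, limma adjusted p = 0.086), or 67.0% of the nontargeting level. Arrays of the same number differed by −0.58, −0.71 and −0.45, and with the replicate number as a block the limma adjusted p was 0.0337, which passed. The direction was negative in 17 of 17 alternatives and past the threshold in 4 of them. With scaling to the array median Slc38a2 read −0.27 (limma adjusted p = 0.54), and within slide row 1 it read −0.90. In the authors' deposited table Slc38a2 stands at −0.56 with an adjusted p of 0.268.

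Slc38a5 (SNAT5) carries glutamine, asparagine, histidine and serine with sodium in exchange for protons, and glycine is among its known substrates. It was the 1 transporter gene that rose, and its probe lies at mm9 chrX:7857241-7857300, plus strand. The sequence is shown because the result rests on this single probe.
Slc38a5 probe: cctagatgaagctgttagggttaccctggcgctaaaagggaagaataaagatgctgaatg

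Slc38a5 read 7.79, 7.36 and 7.53 with Foxo3 siRNA, against 6.80, 6.63 and 6.50 with nontargeting siRNA. Every Foxo3 siRNA array exceeded every nontargeting array, and all 6 arrays were well above background. Slc38a5 averaged 7.56 ± 0.215 with Foxo3 siRNA and 6.64 ± 0.147 with nontargeting siRNA (SD, n = 3 each). The rise was 0.92 on the log2 scale (SE 0.152, 95% interval 0.55 to 1.28, limma adjusted p = 0.00876), or 1.89-fold, and 1.07 relative to the median of all tested probes.

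The Slc38a5 call passed in 16 of 17 alternative settings, with differences from 0.80 to 1.22, and the exception was the fit with no filter on dim probes (adjusted p = 0.102). Within slide row 1, with its single Foxo3 siRNA array, Slc38a5 differed by 1.15 (limma adjusted p = 0.0497), and the slide row block, also among the 16, is that same difference. Pairs of the same number differed by 0.99, 0.73 and 1.03. The authors' deposited table lists Slc38a5 at 0.98 with an adjusted p of 0.0375.

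**Figure D3:**
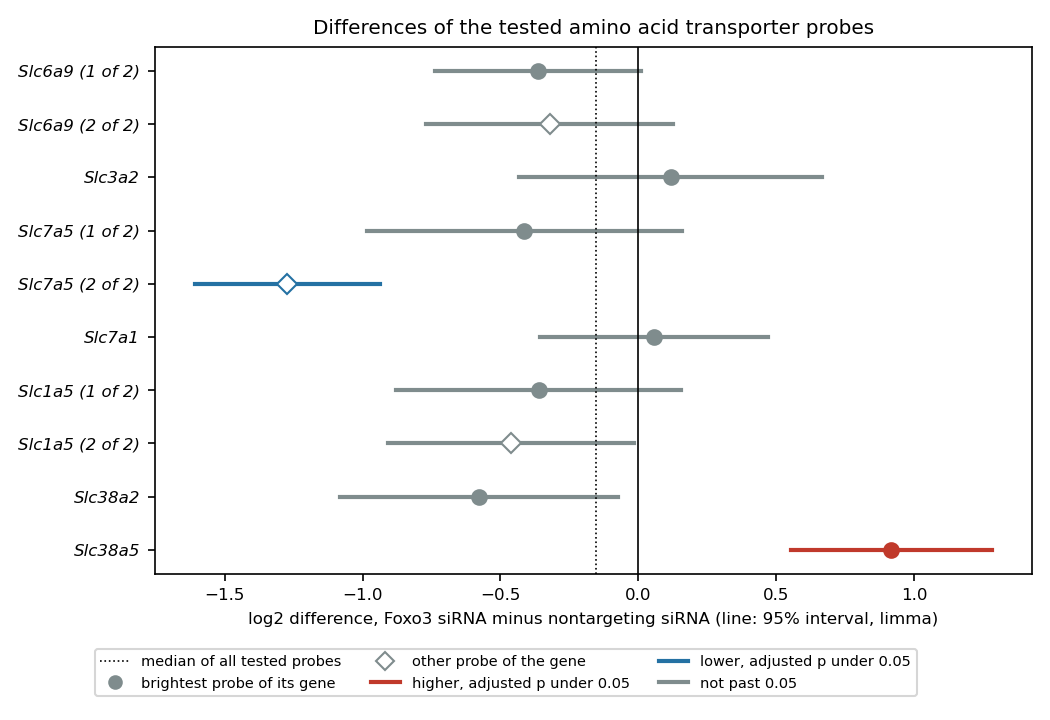
Log2 difference, Foxo3 siRNA minus nontargeting siRNA, with its 95% interval from limma (horizontal axis) for the 10 tested transporter probes. Slc38a5 at 0.92 lies to the right of 0, the dimmer Slc7a5 probe at −1.27 to the left, and the other probes between −0.58 and 0.12, with the median of all tested probes at −0.15 as a dotted line.

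The remaining members were dim. Slc38a1 (SNAT1), a glutamine transporter related to Slc38a2, had 3 probes on chromosome 15, minus strand (mm9 chr15:96406793-96406852, chr15:96405187-96405246 and chr15:96402753-96402812). Slc43a1 (LAT3), a carrier of leucine and other large neutral amino acids that needs no heavy chain, had 1 probe at mm9 chr2:84703578-84703637, plus strand. None of these 4 probes was well above background on any array. Slc43a1 read −6.12, −5.61 and −3.74 with Foxo3 siRNA, against −5.92, −3.98 and −4.52 with nontargeting siRNA, and the 3 Slc38a1 probes read from −6.83 to −3.59 with Foxo3 siRNA, against −6.09 to −4.19 with nontargeting siRNA. The highest value of each of these probes in the Foxo3 siRNA group came from replicate 3, whose lowest well-above-background level was −2.50, against −5.40 to −4.04 on the other arrays.

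The RefSeq promoter table (mouse build GRCm38.p6) gave 11 windows for 7 of the 10 genes, each of 300 bases around a start, and none for Slc7a5, Slc1a5 and Slc38a1. A search of both strands for the FOXO motif GTAAACA matched 0 of the 11 windows, against 3.65% of 32851 windows. The E-box CACGTG was matched in 2, in Slc38a5 at 30 bases before the start and in Slc43a1 at 64, against 7.15% of all windows. The C/EBP-ATF element TGATGNAA and the GATA motifs AGATAA or TGATAA were matched in 0 of 11, against 3.97% and 18.6% of all windows. These are matches of letters in short windows and not sites.

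Genes whose pattern over the 6 arrays was most like that of Slc6a9 and Slc38a5 were found by the root mean square difference after each gene was centred, among 8620 genes well above background on all arrays. The 5 nearest to Slc6a9 were Tbl1xr1 (0.04 on the log2 scale), Wdr77, Spns1, Cars and Dyrk1a (all at 0.05). Their differences ran from −0.45 for Spns1 to −0.28 for Wdr77, and like Slc6a9 each missed the threshold (limma adjusted p from 0.0706 for Cars to 0.232 for Wdr77). With the replicate block Spns1 passed as lower (limma adjusted p = 0.0421). The 5 nearest to Slc38a5 were Gstz1 (0.05), Rfc2 (0.06), Tmem9, Cks2 and Endog (all at 0.08). Each of these rose, by 0.76 for Endog to 1.04 for Tmem9, since likeness over these arrays includes the difference between groups.

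The list of other amino acid transporters held 56 names, with an old and a new name for the same gene among them. Of its genes 25 were tested, of which 2 rose and 8 fell (40.0%, against 26.0% of all gene names). Slc43a2 (LAT4), a relative of Slc43a1, read 1.51, 1.02 and 1.12 with Foxo3 siRNA, against 2.94, 2.94 and 3.25 with nontargeting siRNA. It fell by 1.82 on the log2 scale (SE 0.172, limma adjusted p = 0.00172), and its groups were wholly apart. Slc7a11 (xCT), the cystine light chain of Slc3a2, fell by 2.78 (SE 0.274, limma adjusted p = 0.00195) with 2 of the 3 Foxo3 siRNA values above background. Slc25a44, a mitochondrial carrier of branched-chain amino acids, fell by 1.18 (limma adjusted p = 0.00184), and Slc6a20a, a proline transporter, by 0.85 (limma adjusted p = 0.00485). The 2 that rose, named after their values were seen, were the mitochondrial aspartate-glutamate carriers Slc25a12 (0.56) and Slc25a13 (0.95). Of the 8 that fell, Slc7a11, Slc38a3 and Slc38a11 were each measured above background in 2 of 3 Foxo3 siRNA samples and so entered through the nontargeting group. With the filter on all 6 arrays, 3 were higher and 6 lower of 19 tested. The median of the 25 was −0.33, and with scaling to the array median the counts were 2 higher and 3 lower.

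The list of amino acid sensing by mTORC1 held 43 names, some of them an old and a new name of the same gene. Of its genes 36 were tested, with 9 higher and 8 lower (47.2%, against 26.0% of all gene names) and a median of 0.03. The leucine sensor Sesn2 read 4.25, 4.13 and 3.88 with Foxo3 siRNA, against 5.24, 5.27 and 5.32 with nontargeting siRNA. Sesn2 fell by 1.19 (SE 0.130, limma adjusted p = 0.00255). Sesn1, of the same family, fell by 1.05 (limma adjusted p = 0.00249), and so did Tsc1, a subunit of the complex that restrains mTORC1, by 1.08 (limma adjusted p = 0.00342). The other subunits of that complex did not all follow Tsc1. Named after their values were seen, Tbc1d7 rose by 1.67 (limma adjusted p = 0.00527) and Tsc2 differed by −0.88 (limma adjusted p = 0.112). Mlst8, a subunit of mTORC1 itself, rose by 0.98 (limma adjusted p = 0.00442). With scaling to the array median the counts were 10 higher and 3 lower, with any 1 array left out 4 or 5 were higher and 7 or 8 lower, and with the slide row as a block 1 was higher and 5 were lower.

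Of 27 genes of the ATF4 response to amino acid shortage, 22 were tested, with 3 higher and 10 lower (59.1%, against 26.0% of all gene names) and a median of −0.46. Atf5, a transcription factor downstream of ATF4, read 5.99, 6.43 and 6.60 with Foxo3 siRNA, against 7.57, 7.86 and 8.16 with nontargeting siRNA. Atf5 fell by 1.52 (SE 0.217, limma adjusted p = 0.0055), and Cebpg, a bZIP partner of ATF4, fell by 1.33 (limma adjusted p = 0.00668). Slc7a11 and Sesn2, described above, belong to this list as well. Atf4 itself, named after its value was seen, fell by 0.83 (SE 0.180, limma adjusted p = 0.0206). The 3 that rose were Psat1, Shmt2 and, named after its value was seen, Eif2ak4 (0.40), the kinase that senses uncharged tRNA. With the replicate block Eif2ak4 missed the threshold (limma adjusted p = 0.0532). With scaling to the array median the counts were 3 higher and 6 lower, and with any 1 array left out 0 or 1 was higher and 7 to 9 were lower.

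Of 21 genes of glycine supply and use, Slc6a9 among them, 16 were tested, with 2 higher and 1 lower (18.8%, against 26.0% of all gene names) and a median of −0.05. Psat1, an enzyme of serine synthesis, read 4.34, 4.84 and 4.87 with Foxo3 siRNA, against 3.67, 3.82 and 4.09 with nontargeting siRNA. Psat1 rose by 0.82 (SE 0.191, limma adjusted p = 0.025). Shmt2, which makes glycine from serine in mitochondria, rose by 0.65 (SE 0.164, limma adjusted p = 0.0325), but with the replicate block its adjusted p was 0.0595. Gamt, which uses a product of glycine to make creatine, fell by 0.72 on its brightest probe (limma adjusted p = 0.0358), while another probe that overlaps it gave −0.16 (limma adjusted p = 0.547). Alas2, the first enzyme of erythroid heme synthesis, differed by −0.40 (SE 0.122, limma adjusted p = 0.055). Without Foxo3 siRNA replicate 3 or without nontargeting replicate 1 the count of called genes in this list was 0, and it was 1 without any 1 of Foxo3 siRNA replicate 2 and nontargeting replicates 2 and 3.

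Of 23 genes of glutamine and branched-chain amino acid metabolism, 17 were tested, with 5 higher and 2 lower (41.2%, against 26.0% of all gene names) and a median of 0.16. Glul, which makes glutamine from glutamate, read 3.88, 3.48 and 3.55 with Foxo3 siRNA, against 5.43, 5.29 and 5.66 with nontargeting siRNA. Glul fell by 1.82 (SE 0.161, limma adjusted p = 0.00147). Odc1, which makes polyamines from ornithine, rose by 1.38 (SE 0.119, limma adjusted p = 0.00142), and its other 3 probes rose by 1.39 to 1.88. Bckdhb, a subunit of the branched-chain keto acid dehydrogenase, rose by 1.65 (SE 0.231, limma adjusted p = 0.00519) and Gfpt1, which uses glutamine to make amino sugars, by 0.74 (limma adjusted p = 0.00474). The other 2 that rose, Bcat2 (1.06) and Bckdha (0.52), also take part in the breakdown of branched-chain amino acids and were named after their values were seen. With the slide row as a block, the counts of called genes fell to 4 of the other transporters, 6 of amino acid sensing, 3 of the ATF4 response, 0 of glycine supply and use and 4 of this last list, while 1871 of all 26991 probes were called, against 6857 without it.

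**Figure D4:**
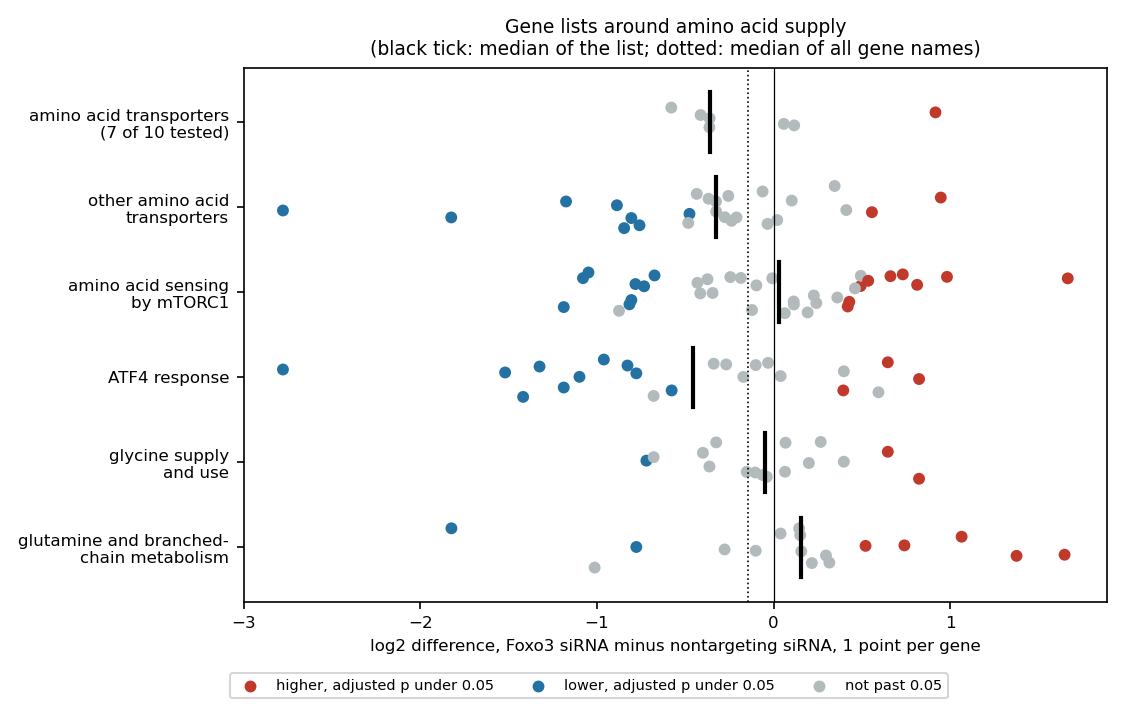
Log2 difference, Foxo3 siRNA minus nontargeting siRNA (horizontal axis), for each tested gene of the transporter set and of 5 lists around amino acid supply, 1 point per gene by its brightest tested probe, with the list median as a black tick and the median of all gene names as a dotted line. The ATF4 response has its median at −0.46 with 3 genes called higher and 10 lower of 22, and the transporter set has its median at −0.36 with 1 gene called of 7, Slc38a5 at 0.92.

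Some markers of cell type differed between the groups. All 11 erythroblast markers on the array were well above background, of which Rhag (1.41, limma adjusted p = 0.00639) and Tfrc (0.61, limma adjusted p = 0.0123) rose. This is 2 of 11, against 26.0% of all gene names. Hbb-b1 (−0.54, limma adjusted p = 0.0733), Hba-a1 (−0.45, limma adjusted p = 0.0689) and Alas2 (−0.40, limma adjusted p = 0.055), for the globins and heme synthesis, did not pass the test. Their groups lay wholly apart, lower with Foxo3 siRNA, and the groups lay wholly apart in either direction for 49.6% of all probes. Those of Slc4a1 (0.18, limma adjusted p = 0.246), Rhag and Tfrc lay wholly apart too, but higher with Foxo3 siRNA. The authors' deposited table lists Hbb-b1 at −0.34 (adjusted p of 0.365), Alas2 at −0.21 (adjusted p of 0.481) and Hba-a1 at 0.0. Scaling to the array median moved the median of all tested probes from −0.15 to 0.15. The falls of Hbb-b1, Hba-a1 and Alas2 are smaller on that scale. The summed signal of the 11 was 3437 to 4631 times the array's 75th percentile with Foxo3 siRNA, against 4985 to 5480 times with nontargeting siRNA, so the sums did not overlap. The sum adds linear signals and so rests mostly on Hba-a1, Hbb-b1 and Alas2. Their nontargeting means were 11.25, 10.36 and 9.89 on the log2 scale, against 7.62 for Slc4a1, the next brightest. It therefore largely repeats those 3 genes and does not stand for all 11. Of 8 megakaryocyte markers 7 were well above background and 3 rose, Treml1 by 2.51, Itga2b by 1.27 and Gp1ba by 0.60, while their summed signal was 39.5 to 70.7 with Foxo3 siRNA and 38.5 to 58.5 with nontargeting siRNA. For the macrophage, mast cell, neutrophil, lymphoid and fibroblast lists, 1 to 3 of 6 markers each were well above background and 0 were called at a limma adjusted p under 0.05. Of these lists the macrophage sum did not overlap, at 5.03 to 6.37 with Foxo3 siRNA against 7.30 to 13.4 with nontargeting siRNA. Csf1r, the brightest macrophage marker, weighs most in that sum. With the replicate block Csf1r was called lower (−0.91, limma adjusted p = 0.0289), as was Camp of the neutrophil list (−0.89, limma adjusted p = 0.0314). The sums overlapped for neutrophil markers (12.6 to 16.0 with Foxo3 siRNA against 14.6 to 25.4 with nontargeting siRNA), lymphoid markers (14.7 to 16.8 against 15.2 to 22.9), mast cell markers (0.545 to 1.32 against 0.711 to 0.893) and fibroblast markers (0.281 to 0.562 against 0.321 to 0.539). Cma1, Cpa3, Mpo and Col1a1 were among the markers that were not well above background in every sample of at least 1 group. Tpsb2, Elane, Cd3e, Cd4 and Col1a2 of the same lists and the lymphoid list were among those that were. The part of these shifts in the transporter values was not tested.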

How the data were processed

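The data are 6 one-colour arrays of total RNA, 3 per siRNA, with groups and replicate numbers from the labels. Per the file headers, Agilent Feature Extraction 10.7.3.1 produced the deposited spot intensity, with background subtracted and surrogates in place of signals that did not exceed it. The deposited series table holds the same intensity (largest difference 0 over 62976 spots) beside a log2 fold change and a p-value, raw and adjusted, that the authors obtained for each spot. The submitters' processing notes name limma, and its normalization is not given in the sources used here. Base 2 of the fold change was inferred from the signals (slope 0.989 over 9229 spots above 1000 on all arrays).

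Control spots (3671 of 62976) and spots marked as outliers were left out. The log2 intensity, less each array's 75th percentile, was averaged over the spots of a probe, which left 55681 probes. A probe counted as well above background on an array when at least as many of its spots were above as were not. Groups were compared with limma 3.58.1 in R 4.3.3 (lmFit and eBayes, two-sided, no covariates) over 26991 probes, with Benjamini-Hochberg adjustment over all of them. The procedure was tested on simulated data. Genes were read by the brightest tested probe over all arrays. No spot was saturated and all arrays shared 1 slide.

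The text names every member probe, Foxo3, up to 4 genes per list with the smallest adjusted p, and the 5 genes nearest to Slc6a9 and to Slc38a5. The members and lists were chosen with earlier results of these data known. Deviations from the group means correlated by 0.288, 0.152 and 0.111 between arrays of the same replicate number, each above the 0.1 set as the limit for treating the numbers as pairs, although Foxo3 siRNA replicate 2 was as near to nontargeting replicate 3 (0.156). The pairing therefore comes from the data and not from the labels. Probe positions follow the array design (mm9). Alternatives were other scalings, normexp background correction with an offset of 50, other filters, slide row or replicate number as a block, array weights, each array left out in turn, the mean of a gene's probes, and the authors' values. Some genes of the lists are counted but not reported by name here.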

Additional observations from a re-analysis of the deposited data

How the results depend on the processing

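The signs of Slc6a9, Slc7a5, Slc1a5, Slc38a2 and Slc38a5 held in all alternatives run, while Slc3a2 and Slc7a1 were each negative in 4 of 17. Slc38a2 passed the test with normexp (−0.54, adjusted p = 0.0415), with probes above background on every array (−0.58, 0.0398), with the replicate block (−0.58, 0.0337) and with array weights (−0.68, 0.0245). In each of these 4 settings the count of transporter genes called was 2 in place of 1, as it was with the mean of a gene's probes (2, through Slc7a5). The pairing of arrays by replicate number in the block changed the calls of Slc38a2, of 8 list genes with Shmt2 and Eif2ak4 among them, and of no other member. With no filter on dim probes, where 55681 probes were tested and 634 called, Slc38a5 (0.92, 0.102) and the RefSeq Foxo3 probe (−2.42, 0.0614) missed the threshold, 0 transporter genes and 0 probes were called, and the lists held 3 other transporters, 0 mTORC1, 1 ATF4, 0 glycine and 2 glutamine genes. The count of transporter probes was 1 within slide row 1 and 4 with array weights, against 2. With the slide row as a block the lists held 4 other transporters, 6 mTORC1, 3 ATF4, 0 glycine and 4 glutamine genes, and within slide row 1 they held 3, 2, 3, 0 and 2. By the authors' deposited values they held 3, 5, 3, 0 and 2. Normexp and the filter on all 6 arrays each gave 5 glycine genes in place of 3. Median scaling gave 5 other transporters in place of 10 and moved the median of the transporter genes to −0.058, with that of all tested probes at 0.152. Leaving out 1 array at a time gave 1 transporter gene and 2 probes throughout, 6 to 8 other transporters (6 without nontargeting replicate 1 or 2), 11 to 13 mTORC1 genes (11 without Foxo3 siRNA replicate 2 or nontargeting replicate 1 or 3), 8 to 10 ATF4 genes (8 without nontargeting replicate 2), 0 to 3 glycine genes, 6 to 7 glutamine genes, and medians of the transporter genes from −0.46 to −0.16. Over all probes, 5888 were called with quantile normalization, 1871 with the slide row block, 1240 within slide row 1, 8701 with normexp, 9020 with array weights and 3344 to 6067 with 1 array left out, against 6857. The RefSeq Foxo3 probe has no value with the filter on all 6 arrays. A 75th percentile over spots above background on all arrays, added after the data were seen, called 6913 probes. Scaling to the array median takes another constant from each array, so it moves the differences of all probes alike. With no filter more probes were tested, and within a slide row or with 1 array left out there were fewer arrays. Beyond this, the cause of these shifts was not tested. Signal over background limits the dim members: Slc38a1, Slc7a6 and Slc43a1 have no measured difference.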
